A study of Mus musculus with 18 samples.

Results

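Desipramine, a tricyclic antidepressant, was set against saline in the nucleus accumbens of nerve-injured mice labelled as lacking RGS9-2. The genes described here are those that the deposited comparison of these 2 groups marked as tested and that had at least 1 FPKM (fragments per kilobase of transcript, scaled to the library's size) in both groups. They numbered 14023, out of 17304 tested genes and 37980 genes in the table. The desipramine group held 3 samples from mice with the genotype label Rgs9-2KO on a C57BL/6 background, with spared nerve injury (SNI) and chronic intraperitoneal desipramine at 15 mg/kg, 2 injections a day. The saline group held 3 samples of the same genotype label, background and injury, given saline. Mice labelled Rgs9 wild type on the same background were also sampled after SNI with desipramine at the same dose, after SNI with saline, and uninjured, and there was an uninjured group labelled knockout, each with 3 samples, for 18 in all. The sources used here do not give age, sex, the number of days of treatment or the extent of the deletion. The 6 groups filled 6 sequencing lanes, 1 group to a lane, so that lane and group cannot be told apart. The deposited values are 1 FPKM per gene and group, so no value of a single mouse can be shown and the sequencing depth of each sample is unknown.

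Desipramine blocks the noradrenaline transporter and so raises extracellular noradrenaline, and it is used against neuropathic pain as well as depression. The nucleus accumbens, the ventral part of the striatum, is made up mostly of GABAergic medium spiny neurons that receive dopaminergic, glutamatergic and noradrenergic input and take part in reward, mood and the affective side of pain. RGS9-2 is the striatal splice form of Rgs9, a GTPase-activating protein that shortens signalling through Gi and Go proteins coupled to dopamine and opioid receptors.

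Rgs9 itself went against the genotype label. Its level was 166 FPKM in the injured desipramine group and 177 FPKM in the injured saline group labelled knockout, a log2 ratio of -0.09 ± 0.25 (the standard error recovered from the deposited test statistic) that did not pass the test. Against the groups labelled wild type, Rgs9 was higher in the injured mice labelled knockout given desipramine (168 FPKM, against 114 FPKM in those labelled wild type) and in those given saline (177 FPKM, against 104 FPKM in those labelled wild type), with q values of 0.00818 and 0.0170 in the authors' deposited tables. The uninjured mice labelled knockout also had more, 217 FPKM against 120 FPKM in uninjured mice labelled wild type, with a q of 0.0443 in the authors' deposited table. These are values over the whole gene, so transcripts were not separated, and the genotypes are given throughout as what the labels say.

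The markers of the tissue were present. The 7 medium spiny neuron markers summed to 1541 FPKM with desipramine and 1618 FPKM with saline, and none of the 7 was called. Markers of cells from outside the accumbens or from its borders were also detected in both groups, none at 0, and some of their sums differed. The 3 ependymal markers summed to 29.2 FPKM with desipramine and 13.1 FPKM with saline, and the 4 hypothalamic markers to 17.3 FPKM with desipramine and 1.64 FPKM with saline. The 2 smooth muscle markers summed to 12.4 FPKM with desipramine and 5.91 FPKM with saline. The 4 cortical excitatory neuron markers went the other way, to 51.3 FPKM with desipramine and 95.3 FPKM with saline. The sum of the 5 choroid plexus markers was also lower, at 433 FPKM with desipramine and 614 FPKM with saline. None of those 5 was called. Ttr made up most of their sum, at 407 FPKM with desipramine and 587 FPKM with saline. The log2 ratios of Folr1, Kl and Clic6 ran from -0.15 to -0.04, and that of Otx2 was 0.38. Astrocyte, oligodendrocyte, microglial, endothelial and red cell sums lay close together in the 2 groups, for example 238 FPKM with desipramine and 232 FPKM with saline for 3 astrocyte markers. In bulk tissue, fewer cells of a type and less RNA per cell cannot be told apart, and the part that the tissue taken from each mouse has in the differences below was not tested.

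A gene was called where the authors' deposited table gave it status OK and a q of at most 0.05. With desipramine, 107 of the 14023 genes were called, or 0.763%, of which 63 were higher (0.449%) and 44 lower (0.314%). The lowest p that the deposited test gave, 5e-05, was shared by 69 of the 107, and it corresponded to a q of 0.00739 in the authors' deposited table. At an unadjusted p under 0.05, 251 genes were higher (1.79%) and 214 lower (1.53%), together a smaller share than 0.05 of the genes. The median log2 ratio over all 14023 genes was -0.02, the central range from the 5th to the 95th percentile ran from -0.29 to 0.27, and 44.3% of the ratios were above 0. The median recovered standard error of a log2 ratio was 0.31. Called genes were mostly of low to middling level: the median of the mean FPKM of the 2 groups was 5.72 for genes called higher and 7.04 for genes called lower, against 12.3 for all genes. A call was made for 1.51% of genes between 2 and 4 FPKM and for 0.205% of those at 64 FPKM or more. The smallest ratio that was called was 0.48 upwards and -0.45 downwards. A normal p computed from the deposited test statistic called 64 genes, 30 higher and 34 lower, of which 27 were among the 107. It ended the calls of 29 of 51 named genes, among them Npas4, Fos, Arc, Crh, Pnoc, Calb2, Cck, Slc17a7, Nrn1, Neurod2, Pvalb, Ngfr, Htr4 and Slc18a2; the calls of Fos and Slc18a2 also ended with adjustment over all 7 tables.

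**Figure D1:**
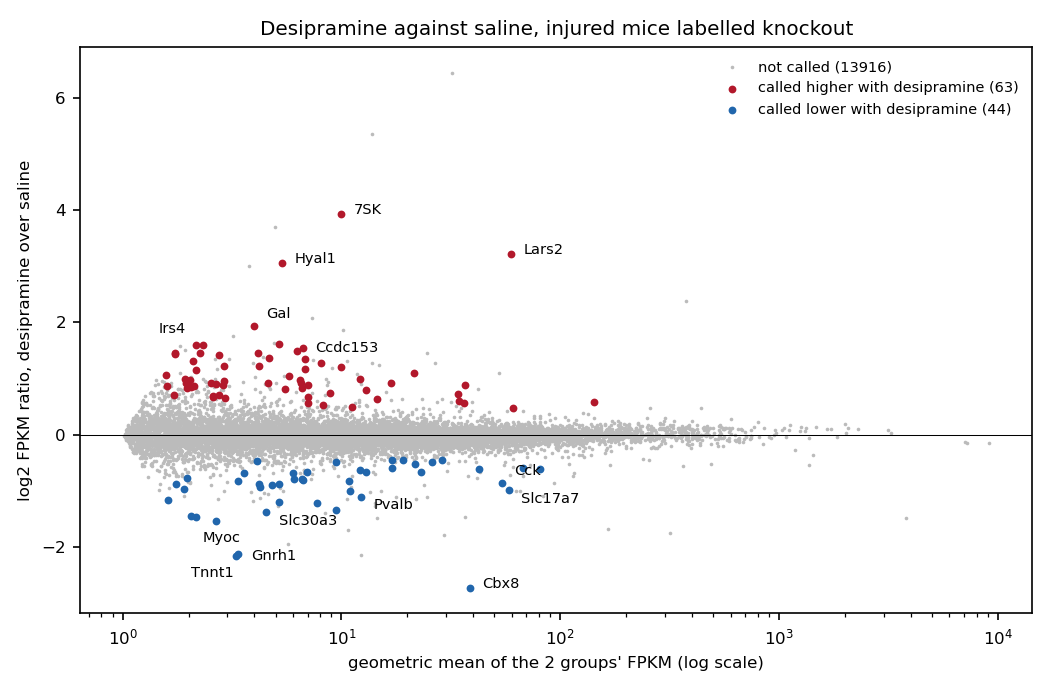
The log2 ratio of the FPKM, desipramine over saline (vertical axis), is drawn against the geometric mean FPKM of the 2 groups (horizontal axis, log scale) for each of the 14023 genes, 1 point a gene. The 63 genes called higher (red) reach 3.93 at 7SK, the 44 genes called lower (blue) reach -2.73 at Cbx8, and the largest ratios of all are uncalled (grey).

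Genes of motile cilia were prominent among those that rose. Motile cilia beat by means of dynein arms on an axoneme of microtubules, and in the adult brain they are carried by the ependymal cells that line the ventricles. Over all genes 0.449% rose and the median log2 ratio was -0.02. Of 14 genes of the motile cilia and ependymal list, 10 rose and none fell, 13 had a positive ratio, and the median was 1.16. At a floor of 5 FPKM, which most of the called ones did not reach with saline, 2 rose and the median was 0.37. The list was chosen with earlier results of these data known, and it is described by its counts only. Foxj1, the transcription factor that switches on the motile cilia programme, stood at 8.25 FPKM with desipramine and 3.99 FPKM with saline, a log2 ratio of 1.05 ± 0.28. Dynlrb2, a light chain of dynein, stood at 10.5 FPKM with desipramine and 3.73 FPKM with saline (1.495 ± 0.28). The coiled-coil gene Ccdc153, an ependymal marker, stood at 11.4 FPKM with desipramine and 3.90 FPKM with saline (1.55 ± 0.31). Radial spokes are the axonemal stalks that pass signals from the central pair to the dynein arms. Of 6 Rsph genes above the floor, 2 were called, and the median was 0.33. Rsph1 (9.54 FPKM with desipramine against 5.17 FPKM with saline, 0.88 ± 0.36) and Rsph4a (3.67 FPKM with desipramine against 1.96 FPKM with saline, 0.90 ± 0.33) rose. Outside the list, Rsph9 (0.43 ± 0.51), Rsph3a (0.23 ± 0.56), Rsph10b2 (0.10 ± 1.09) and Rsph3b (-0.12 ± 0.45) did not pass. Tekt1, a tektin of ciliary microtubules, stood at 3.48 FPKM with desipramine and 1.84 FPKM with saline (0.92 ± 0.44). The other tested tektin genes, Tekt2 (0.50 ± 0.88), Tekt5 (-0.26 ± 0.32) and Tekt4 (0.93 ± 0.46, under the floor with saline), did not pass. The membrane protein gene Tmem212 had 9.09 FPKM with desipramine and 2.98 FPKM with saline (1.61 ± 0.35), and Fam183b had 12.5 FPKM with desipramine and 5.19 FPKM with saline (1.27 ± 0.44). The 2 other called members, 1700012B09Rik and 1700009P17Rik, had log2 ratios of 1.60 and 1.37. The 4 members that did not pass the test were Mia1 (1.28 ± 1.56), Spag6 (0.37 ± 0.42), 1110017D15Rik (0.33 ± 0.26) and Ccdc39, at 13.3 FPKM with desipramine and 14.6 FPKM with saline, the only negative ratio of the 14. The Foxj1, Ccdc153 and Rsph1 values are the same that make up the ependymal marker sum above.

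Several further called genes outside that list encode axonemal or ciliary proteins, and these were picked out after their values were seen. Enkur, which encodes enkurin of the sperm and cilium axoneme, had 6.41 FPKM with desipramine and 2.75 FPKM with saline (1.22 ± 0.42). Lrrc23, a radial spoke component, had 10.9 FPKM with desipramine and 4.29 FPKM with saline (1.34 ± 0.56). Odf3b, a relative of the outer dense fibre genes, had 3.73 FPKM with desipramine and 1.35 FPKM with saline (1.46 ± 0.39). Ubxn10, which encodes a ciliary partner of the VCP ATPase, had 2.72 FPKM with desipramine and 1.37 FPKM with saline (0.99 ± 0.37), and Mns1, a filament protein needed for motile cilia, had 2.74 FPKM with desipramine and 1.52 FPKM with saline (0.85 ± 0.39). The long axonemal genes lay mostly under the floor of 1 FPKM and so outside the genes described here. Among 10 tested heavy chains of axonemal dynein, 8 had a positive ratio with a median of 1.19 and 3 were called, all higher: Dnahc3 at 0.592 FPKM with desipramine and 0.239 FPKM with saline, Dnahc5 at 0.682 FPKM with desipramine and 0.289 FPKM with saline, and Dnahc6 at 0.908 FPKM with desipramine and 0.409 FPKM with saline. Hydin, a central pair protein whose loss causes hydrocephalus in mice, was likewise called at 0.435 FPKM with desipramine and 0.171 FPKM with saline.

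Regulatory factor X proteins, which work with FOXJ1 at genes of motile cilia, bind the X-box, and the promoters of 3 called ciliary genes are shown because letters of that kind lie in them; the promoter of Cbx8, the gene with the largest called fall, is shown for the cAMP response element that CREB binds. They are RefSeq windows of the build GRCm38.p6 from 250 bases before to 50 bases after the annotated start, on the gene's own strand, and the capitals mark the motif. The windows are chr2:21205316-21205615 (minus strand) for Enkur, chr4:138725216-138725515 (minus strand) for Ubxn10, chr6:124779678-124779977 (minus strand) for Lrrc23 and chr11:119040864-119041163 (minus strand) for Cbx8.
Enkur: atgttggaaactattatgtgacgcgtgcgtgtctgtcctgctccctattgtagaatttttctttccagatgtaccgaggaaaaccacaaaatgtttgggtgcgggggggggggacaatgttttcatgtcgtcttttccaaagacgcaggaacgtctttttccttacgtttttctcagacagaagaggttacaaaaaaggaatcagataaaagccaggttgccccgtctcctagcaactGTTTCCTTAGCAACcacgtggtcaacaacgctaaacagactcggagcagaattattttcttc
Ubxn10: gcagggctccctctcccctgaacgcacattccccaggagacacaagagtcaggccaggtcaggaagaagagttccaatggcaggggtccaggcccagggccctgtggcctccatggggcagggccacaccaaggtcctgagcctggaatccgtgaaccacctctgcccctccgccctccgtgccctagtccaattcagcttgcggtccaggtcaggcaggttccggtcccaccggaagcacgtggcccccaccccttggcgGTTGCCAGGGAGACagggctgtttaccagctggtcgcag
Lrrc23: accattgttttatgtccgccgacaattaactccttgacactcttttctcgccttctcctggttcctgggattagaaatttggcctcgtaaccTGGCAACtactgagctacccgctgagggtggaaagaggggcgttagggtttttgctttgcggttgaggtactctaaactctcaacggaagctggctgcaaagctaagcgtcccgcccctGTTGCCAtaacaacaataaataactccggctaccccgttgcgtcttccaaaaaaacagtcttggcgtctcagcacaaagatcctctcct
Cbx8: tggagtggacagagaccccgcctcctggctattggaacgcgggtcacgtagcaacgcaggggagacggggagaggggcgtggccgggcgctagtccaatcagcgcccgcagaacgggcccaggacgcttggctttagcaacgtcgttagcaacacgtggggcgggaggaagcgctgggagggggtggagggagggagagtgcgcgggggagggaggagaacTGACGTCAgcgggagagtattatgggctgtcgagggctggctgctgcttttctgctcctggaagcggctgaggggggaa
The 3 motifs below were searched on both strands after the values were seen. The X-box was written as GTNNCC and GNAAC with 3 bases of any kind between them, a shorter piece of it as GTTGCCA, and the cAMP response element as TGACGTCA; the first 2 can overlap, as they do in Ubxn10. A window was found for 45 of the 63 genes called higher and 29 of the 44 called lower. The X-box letters were in 3 of the 45 (Enkur, Tm4sf1 and Ubxn10) and in 0 of the 29, against 3.25% of the 10367 genes above the floor with a window and 2.49% of all 27025 genes with one. GTTGCCA was in 8 of the 45, among them Lrrc23, Mlf1, Mns1, Tekt1 and Ubxn10, and in 0 of the 29, against 4.81% of the genes above the floor and 5.02% of all. Of the 10 called genes of the motile cilia list 7 had a window, of which 0 held the X-box letters and 1, Tekt1, held GTTGCCA. TGACGTCA was in 2 of the 45 (Mlf1 and Slc18a2) and 2 of the 29 (Cbx8 and Dio2), against 3.56% of the genes above the floor and 2.03% of all. These matches are descriptions of letters in a window and were given no test.

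Peptide and receptor genes of septal, pallidal, thalamic and hypothalamic neurons were the other list with many rises. Of 18 listed genes, 7 rose and none fell, 17 had a positive log2 ratio and the median was 0.49. Over all genes 0.449% rose, 44.3% had a positive ratio and the median was -0.02. This list too was chosen with earlier results of these data known. Gal, which encodes the inhibitory neuropeptide galanin, stood at 7.74 FPKM with desipramine and 2.03 FPKM with saline (1.93 ± 0.36). Irs4, an insulin receptor substrate expressed in hypothalamus, stood at 3.74 FPKM with desipramine and 1.24 FPKM with saline (1.59 ± 0.30). Gabrq, the theta subunit of the GABA-A receptor, stood at 6.85 FPKM with desipramine and 2.51 FPKM with saline (1.45 ± 0.31). The other 4 changed less: Ngb, the neuronal oxygen-binding protein neuroglobin, at 17.0 FPKM with desipramine and 9.84 FPKM with saline (0.79 ± 0.29), Calb2, the calcium buffer calretinin, at 43.9 FPKM with desipramine and 26.6 FPKM with saline (0.72 ± 0.25), Magel2, an imprinted gene of hypothalamic neurons, at 3.70 FPKM with desipramine and 2.35 FPKM with saline (0.66 ± 0.30), and Baiap3, which takes part in dense-core vesicle traffic, at 44.3 FPKM with desipramine and 29.9 FPKM with saline (0.57 ± 0.27), all higher with desipramine. Among listed genes that did not pass were Zic1 (33.6 FPKM with desipramine and 22.4 FPKM with saline, 0.58 ± 0.29), Nnat (520.8 FPKM with desipramine and 373.7 FPKM with saline, 0.48 ± 0.24) and Nkx2-1 (3.37 FPKM with desipramine and 2.43 FPKM with saline, 0.47 ± 0.30).

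Oxt and Avp, the genes of the hypothalamic hormones oxytocin and vasopressin, were called higher but fell under the floor in the saline group. Oxt was at 14.8 FPKM with desipramine and 0.523 FPKM with saline (4.82 ± 0.43), and Avp was at 1.79 FPKM with desipramine and 0.311 FPKM with saline (2.52 ± 0.53). With desipramine they make up nearly all of the hypothalamic marker sum given above. Gabre, the epsilon subunit of the GABA-A receptor, was also called from under the floor, at 1.86 FPKM with desipramine and 0.716 FPKM with saline. Of all 17304 tested genes 181 were called, or 1.05%, and 74 of these were under 1 FPKM in a group, 67 of them higher and 7 lower, and 41 of the 74 were under the floor with saline only. Among those with a finite ratio, the 5 with the largest ratios by the naming rule were Oxt, Avp, the transcription factor gene Ebf2 (2.37), 2010001K21Rik (2.15) and 1600029I14Rik (1.98).

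Other neuropeptide genes moved in both directions. Of 22 genes of the neuropeptide list above the floor, which leaves out Pnoc and Gnrh1, 3 rose, 2 fell and the median log2 ratio was 0.05. Besides Gal, Crh, the gene of the stress peptide corticotropin-releasing hormone, rose to 9.06 FPKM with desipramine, against 4.595 FPKM with saline (0.98 ± 0.28). Nts, the gene of neurotensin, stood at 42.5 FPKM with desipramine and 27.9 FPKM with saline (0.61 ± 0.20). Cck, the gene of cholecystokinin, fell to 40.2 FPKM with desipramine, against 73.1 FPKM with saline (-0.86 ± 0.31). Adcyap1, the gene of the cAMP-raising peptide PACAP, fell to 1.07 FPKM with desipramine, against 2.41 FPKM with saline (-1.17 ± 0.38). The abundant striatal peptide genes did not pass the test: Penk stood at 1274 FPKM with desipramine and 1226 FPKM with saline, Tac1 at 298 FPKM with desipramine and 343 FPKM with saline, Sst at 449 FPKM with desipramine and 398 FPKM with saline, and Pdyn at 113 FPKM with desipramine and 119.6 FPKM with saline.

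**Figure D2:**
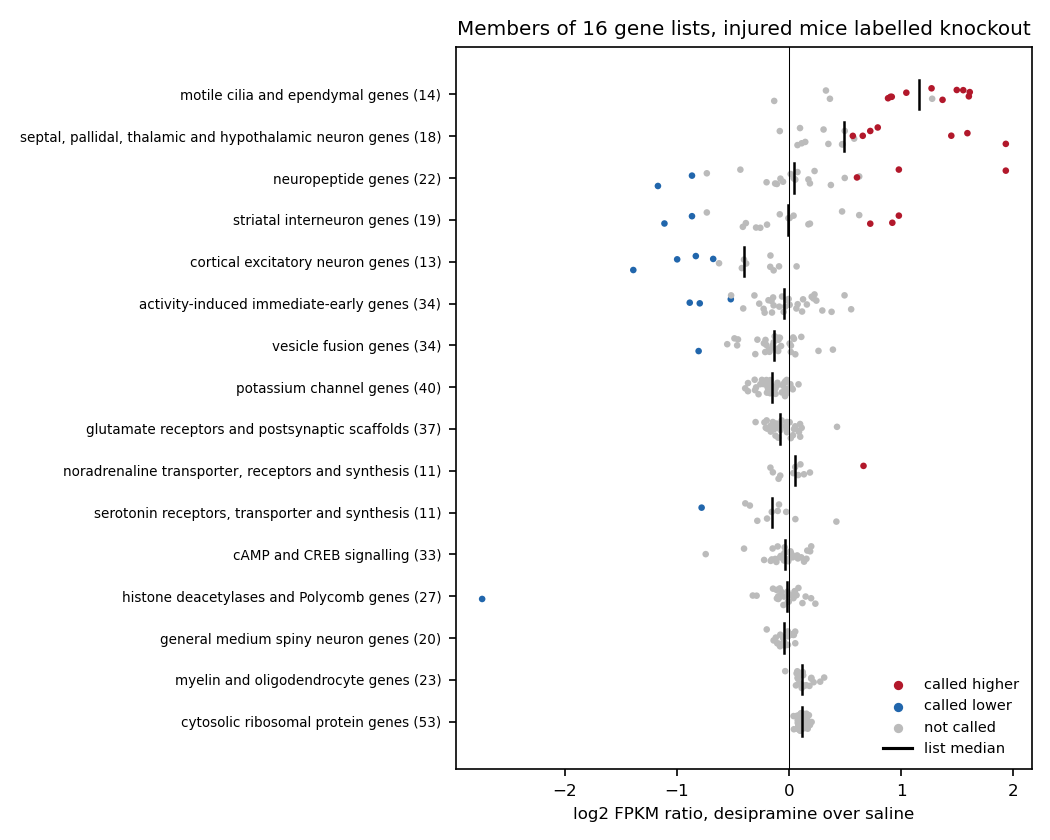
Each point is the log2 FPKM ratio, desipramine over saline (horizontal axis), of a gene in 1 of 16 lists (rows, with the number of genes above the floor), red where called higher, blue where called lower and grey where not called, and the black bar is the list's median. The motile cilia genes lie furthest to the right, with a median of 1.16, and the cortical excitatory neuron genes furthest to the left, with a median of -0.40.

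Among called genes above the floor, those with the highest ratios belonged to neither list. Lars2, which encodes the mitochondrial leucyl-tRNA synthetase and lies at chr9:123276057-123371782 in the deposited table (build NCBIM37, mm9), stood at 182 FPKM with desipramine and 19.5 FPKM with saline, a log2 ratio of 3.23 ± 0.45. It was 1 of 25 listed genes of the mitochondrial ribosome and aminoacyl-tRNA synthetases, none of the other 24 was called, and the list's median was 0.03. Hyal1, which encodes a hyaluronidase that breaks down the extracellular matrix sugar hyaluronan, stood at 15.5 FPKM with desipramine and 1.86 FPKM with saline (3.06 ± 0.40) and lies at chr9:107478150-107489756. The gene named 7SK, the small nuclear RNA that holds back the elongation factor P-TEFb, stood at 39.0 FPKM with desipramine and 2.55 FPKM with saline (3.93 ± 0.21) and lies at chr9:78023109-78023440. The table holds 331 entries named 7SK, of which 6 were above the floor, and the median ratio of those 6 was -0.10; how reads were shared between the copies was not tested. Above the floor the ratios higher than that of 7SK were those of 2 uncalled small nuclear RNA entries: a U1 entry at 298.6 FPKM with desipramine and 3.39 FPKM with saline (p = 0.0167 in the authors' deposited table) and a U4 entry at 88.4 FPKM with desipramine and 2.15 FPKM with saline. The chemokine gene Ccl9, also uncalled, stood at 17.9 FPKM with desipramine and 1.38 FPKM with saline, with a recovered standard error of 3.76.

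Hdc, the histamine-forming enzyme histidine decarboxylase, stood at 2.85 FPKM with desipramine and 1.05 FPKM with saline (1.44 ± 0.55), just above the floor with saline. Asb4, an ankyrin repeat gene expressed in hypothalamic neurons, stood at 3.30 FPKM with desipramine and 1.33 FPKM with saline (1.31 ± 0.39). Acta2, the actin of vascular smooth muscle, stood at 10.2 FPKM with desipramine and 4.56 FPKM with saline (1.16 ± 0.28), and Myh11, the smooth muscle myosin heavy chain, at 2.199 FPKM with desipramine and 1.35 FPKM with saline (0.70 ± 0.33). These were the 2 called genes among 11 of the pericyte and smooth muscle list, whose median was 0.12. Among 19 endothelial genes none was called and the median was 0.06. Agt, the astrocytic gene of angiotensinogen, was the only called gene of 18 astrocyte genes, at 18.1 FPKM with desipramine and 11.7 FPKM with saline (0.63 ± 0.25).

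**Figure D3:**
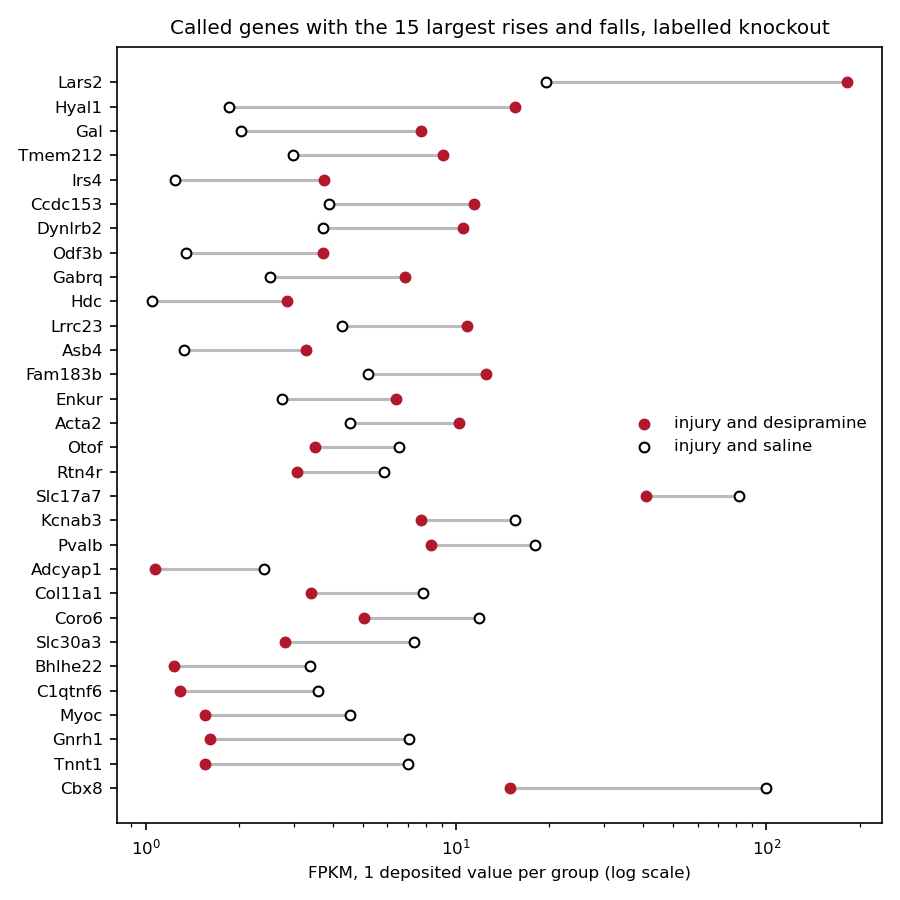
The FPKM (horizontal axis, log scale) with injury and desipramine (filled red) and with injury and saline (open) is shown for 30 named called genes of mice labelled knockout, 15 with the largest rises and 15 with the largest falls, 1 deposited value per group, joined by a line. Lars2 is at 182 FPKM with desipramine and 19.5 FPKM with saline at the top, and Cbx8 at 15.0 FPKM with desipramine and 99.6 FPKM with saline at the bottom.

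Of the genes that fell, Cbx8 had the largest ratio. Cbx8, a chromobox subunit of the Polycomb repressive complex PRC1, stood at 15.0 FPKM with desipramine and 99.6 FPKM with saline (-2.73 ± 0.15) and lies at chr11:118897618-118902283. Cbx2, Cbx6 and Cbx7, chromobox relatives of PRC1, were not called: Cbx2 stood at 1.59 FPKM with desipramine and 1.38 FPKM with saline, Cbx6 at 116 FPKM with desipramine and 128 FPKM with saline, and Cbx7 at 23.5 FPKM with desipramine and 25.02 FPKM with saline. Cbx8 was also the only called gene among 27 histone deacetylase and Polycomb genes, and none of 12 histone deacetylases was called, with a median ratio of -0.01. Tnnt1, the slow skeletal muscle troponin T, stood at 1.56 FPKM with desipramine and 7.03 FPKM with saline (-2.17 ± 0.59). Gnrh1, which encodes gonadotropin-releasing hormone of scattered septal and preoptic neurons, stood at 1.61 FPKM with desipramine and 7.07 FPKM with saline (-2.13 ± 0.35). It fell while 7 septal and hypothalamic genes rose, as given above.

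Genes of cortical excitatory neurons leaned low. Of 13 listed genes above the floor, 4 fell and none rose, 12 had a negative log2 ratio and the median was -0.40. Over all genes 0.314% fell and the median was -0.02. The cortical list was also chosen with earlier results of these data known. Slc17a7, the vesicular glutamate transporter of cortical neurons, stood at 41.1 FPKM with desipramine and 81.9 FPKM with saline (-0.996 ± 0.30). Slc30a3, which loads zinc into the vesicles of such neurons, stood at 2.80 FPKM with desipramine and 7.34 FPKM with saline (-1.39 ± 0.34). Neurod2, a transcription factor of excitatory neurons, stood at 2.53 FPKM with desipramine and 4.49 FPKM with saline (-0.83 ± 0.33), and Nrn1, the plasticity gene neuritin, at 10.2 FPKM with desipramine and 16.3 FPKM with saline (-0.68 ± 0.27). Emx1 was called lower with 0.880 FPKM with desipramine and 1.95 FPKM with saline, and so under the floor. Tbr1 (4.80 FPKM with desipramine against 6.33 FPKM with saline, -0.40 ± 0.31), Neurod6 (4.27 FPKM with desipramine against 5.71 FPKM with saline, -0.42 ± 0.31) and Cux2 (5.94 FPKM with desipramine against 9.15 FPKM with saline, -0.62 ± 0.39) did not pass, and Camk2n2 had the only positive ratio, 0.07. Bhlhe22, a transcription factor of cortical projection neurons that was in no list, stood at 1.23 FPKM with desipramine and 3.38 FPKM with saline (-1.45 ± 0.33). Rtn4r, the Nogo receptor that limits axon growth, stood at 3.08 FPKM with desipramine and 5.87 FPKM with saline (-0.93 ± 0.34). Slc17a7 accounts for most of the cortical marker sum given above, and the cortical markers Neurod6 and Tbr1 were not called.

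Genes of striatal interneurons split. Of 19, 3 rose, 2 fell and the median was -0.0045. Calb2 and Crh rose as given above, and Chodl, a marker of long-range somatostatin neurons in cortex, stood at 2.67 FPKM with desipramine and 1.41 FPKM with saline (0.92 ± 0.38). Pvalb, the calcium buffer of fast-spiking interneurons, stood at 8.33 FPKM with desipramine and 18.0 FPKM with saline (-1.11 ± 0.33), and Cck fell. Syt2, the fast calcium sensor of such interneurons, was the only 1 of 34 vesicle fusion genes to be called, at 5.06 FPKM with desipramine and 8.85 FPKM with saline (-0.81 ± 0.23). Kcnab3, a beta subunit of voltage-gated potassium channels, stood at 7.68 FPKM with desipramine and 15.5 FPKM with saline (-1.01 ± 0.30). The cholinergic interneuron genes Chat (8.03 FPKM with desipramine against 10.5 FPKM with saline, -0.38 ± 0.24) and Slc5a7 (7.42 FPKM with desipramine against 9.87 FPKM with saline, -0.41 ± 0.21) did not pass, and the muscarinic receptor gene Chrm5 rose to 2.28 FPKM with desipramine, against 1.09 FPKM with saline (1.06 ± 0.39).

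Activity-induced immediate-early genes report recent neuronal firing. Of 34, 3 fell, none rose and the median was -0.04, so that the list as a whole lay close to all genes. Npas4, which is induced by calcium entry, stood at 3.81 FPKM with desipramine and 7.03 FPKM with saline (-0.88 ± 0.27). Fos stood at 4.99 FPKM with desipramine and 8.66 FPKM with saline (-0.79 ± 0.36), with a q of 0.0435 in the authors' deposited table. Arc, which acts in the removal of AMPA receptors from synapses, stood at 18.1 FPKM with desipramine and 25.9 FPKM with saline (-0.52 ± 0.24). The transcription factor gene Mef2c, an activity-responsive regulator of synapse number, also fell, to 18.3 FPKM with desipramine, against 29.2 FPKM with saline (-0.68 ± 0.24). Fos and Npas4 had also been called higher after injury than in uninjured mice labelled knockout, by 0.90 and 0.99 on the log2 scale; that comparison, in which 0.508% of the genes above the floor were called, shares the injured saline group.

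Some genes of matrix and meninges fell as well, while other matrix genes were called higher. Myoc, the secreted protein myocilin, stood at 1.55 FPKM with desipramine and 4.54 FPKM with saline (-1.55 ± 0.42), and Col6a1, a chain of collagen VI, at 54.9 FPKM with desipramine and 83.1 FPKM with saline (-0.60 ± 0.31). They were the 2 called genes among 17 of the meningeal, fibroblast and collagen list, whose median was -0.09. The 5 meningeal markers, Col1a1, Col1a2, Dcn, Lum and Slc6a20a, were not called and summed to 13.97 FPKM with desipramine and 12.7 FPKM with saline. Col11a1, a fibrillar collagen chain, stood at 3.40 FPKM with desipramine and 7.81 FPKM with saline (-1.20 ± 0.31). Of 37 tested collagen chain genes, 3 fell and 1 rose, and 13 had a positive ratio. The 1 that rose was Col6a5, another chain of collagen VI, from 0.663 FPKM with saline to 1.07 FPKM with desipramine (0.69 ± 0.34). Above the floor, the matrix genes Vit (0.98 ± 0.38) and Coch (0.81 ± 0.29) were called higher. C1qtnf6, a secreted relative of complement C1q, stood at 1.29 FPKM with desipramine and 3.58 FPKM with saline (-1.47 ± 0.37). Outside matrix and meninges, Coro6, an actin-binding coronin, stood at 5.07 FPKM with desipramine and 11.8 FPKM with saline (-1.22 ± 0.32). Otof, the calcium sensor otoferlin, was at 3.52 FPKM with desipramine and 6.56 FPKM with saline (-0.90 ± 0.26).

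In the noradrenaline, serotonin and neurotrophin lists 1 gene each was called, where 0.763% of all 14023 genes were. In lists this short 1 call is a larger share than that, and it was given no test. The noradrenaline transporter gene Slc6a2, the drug's main target, which is transcribed in brainstem neurons, was too low to be tested. Of 11 noradrenaline genes above the floor, Slc18a2, the vesicular monoamine transporter, was the only one called, at 3.26 FPKM with desipramine and 2.06 FPKM with saline (0.66 ± 0.30), with a q of 0.0435 in the authors' deposited table, and the list's median was 0.06. The adrenergic receptor genes Adra2a (4.05 FPKM with desipramine against 3.77 FPKM with saline), Adra2c (13.8 FPKM with desipramine against 14.6 FPKM with saline), Adra1a (3.09 FPKM with desipramine against 3.29 FPKM with saline) and Adrb1 (5.17 FPKM with desipramine against 5.795 FPKM with saline) were not called. Of 11 serotonin genes, Htr4, a receptor that raises cAMP, fell to 1.496 FPKM with desipramine, against 2.57 FPKM with saline (-0.78 ± 0.30), and the median was -0.15. Of 12 neurotrophin genes, Ngfr, the low-affinity neurotrophin receptor p75, fell to 3.10 FPKM with desipramine, against 5.69 FPKM with saline (-0.88 ± 0.31). Ntrk2, the receptor of BDNF, stood at 116 FPKM with desipramine and 103 FPKM with saline and did not pass, and Bdnf itself, at 0.897 FPKM with desipramine and 1.34 FPKM with saline (-0.58 ± 0.38), was under the floor with desipramine.

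None of the 33 genes of cAMP and CREB signalling was called, with a median of -0.04, nor was any of the 33 G protein and RGS genes, with a median of 0.03. The gene of lowest p in the cAMP list was Adcy1, a calcium-stimulated adenylyl cyclase, at 15.9 FPKM with desipramine and 20.9 FPKM with saline (-0.40 ± 0.25). In the G protein and RGS list it was Rgs12, at 14.7 FPKM with desipramine and 19.0 FPKM with saline (-0.38 ± 0.28). Of 8 opioid genes, Pnoc, the precursor of nociceptin, rose to 9.03 FPKM with desipramine, against 4.77 FPKM with saline (0.92 ± 0.28). The opioid receptor genes Oprm1 (4.34 FPKM with desipramine against 5.99 FPKM with saline, -0.47 ± 2.13), Oprd1 (2.99 FPKM with desipramine against 3.93 FPKM with saline, -0.39 ± 0.28) and Oprk1 (10.1 FPKM with desipramine against 11.9 FPKM with saline, -0.24 ± 0.25) did not pass. Crh was the only called gene among 23 of the glucocorticoid-responsive list, whose median was 0.08. Npy1r, a receptor of neuropeptide Y that lay in no list, fell to 4.601 FPKM with desipramine, against 7.97 FPKM with saline (-0.79 ± 0.25).

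The general medium spiny neuron genes lay close to 0. None of 20 was called, their ratios ran from -0.20 to 0.06 and their median was -0.04. Among these genes Ppp1r1b, which encodes the dopamine-regulated phosphatase inhibitor DARPP-32, had 698 FPKM with desipramine and 716 FPKM with saline. None of the 10 direct pathway genes (median -0.13) and none of the 9 indirect pathway genes (median 0.06) was called. Ion channel genes leaned low without a call: 4 of 40 potassium channel genes had a positive ratio, with a median of -0.15, and 6 of 30 sodium, calcium and HCN channel genes, with a median of -0.07. The lowest p among the potassium channel genes belonged to Kcnh3, at 23.6 FPKM with desipramine and 31.0 FPKM with saline (-0.39 ± 0.23). Glutamate receptor and scaffold genes had 11 positive ratios of 37 and a median of -0.08. All 53 ribosomal protein genes had positive ratios, from 0.04 to 0.20, and 22 of 23 myelin genes were positive with a median of 0.11, but no gene of either list was called. No gene was called among the cholesterol, lysosome, heat shock, unfolded protein response, clock, endocannabinoid, choroid plexus, endothelial, microglial, interferon, red cell and respiratory chain lists, whose medians lay between -0.09 and 0.06. In all, 22 of the 41 lists held no called gene, and 64 of the 107 called genes were in no list.

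The same drug at the same dose was set against saline in injured mice labelled wild type, in a comparison that shares no sample with the one above. There 23 of 14132 genes above the floor were called, or 0.163%. Of the 107 genes called in mice labelled knockout, 12 were also called there. A call in 1 table and not in the other is no test, so the difference of the 2 log2 ratios was tested for 13827 genes, with a normal p from the recovered standard errors adjusted by the Benjamini-Hochberg method. The difference passed for 20 genes, or 0.145%, with 7 higher (0.0506%) and 13 lower (0.094%) in mice labelled knockout. At an unadjusted p under 0.05 there were 52 higher and 67 lower, together a smaller share than 0.05 of the 13827 genes. The central scores in mice labelled knockout were narrower than a standard normal (spread 0.342). With these errors the test can therefore miss differences. Of the 105 called genes that could enter, 14 passed, so for the other 91 a difference from mice labelled wild type was not shown, even where the 2 ratios had opposite signs.

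For 3 of the 13 listed cortical genes, Slc30a3, Slc17a7 and Nrn1, the difference passed, with ratios of opposite sign; for Neurod2 and the rest of the list it was not shown. Slc30a3 had a log2 ratio of -1.39 in mice labelled knockout and 1.49 in mice labelled wild type, a difference of -2.87 ± 0.45 (adjusted p = 1.19e-06 from the authors' statistics). Slc17a7 had -0.996 in mice labelled knockout and 0.78 in mice labelled wild type, a difference of -1.78 ± 0.41 (adjusted p = 0.0193 from the authors' statistics). In mice labelled knockout Cck had -0.86, Nrn1 -0.68, Rtn4r -0.93 and Adcyap1 -1.17, while in mice labelled wild type Cck had 0.86, Nrn1 0.97, Rtn4r 0.96 and Adcyap1 0.84. These 6 were called in both tables and passed the test of the difference, a choice that favours opposite signs, and all 6 had them. Others of the 12 genes called in both tables moved the same way, as given below. The cortical list as a whole had a median of -0.40 in mice labelled knockout and 0.21 in mice labelled wild type, where 3 of its genes rose.

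Lars2, Hyal1 and 7SK had large ratios in mice labelled knockout and smaller ones in mice labelled wild type. Lars2 had 3.23 in mice labelled knockout and 0.42 in mice labelled wild type, a difference of 2.81 ± 0.50 (adjusted p = 7.62e-05 from the authors' statistics). Hyal1 had 3.06 in mice labelled knockout and 0.06 in mice labelled wild type, a difference of 3.001 ± 0.75 (adjusted p = 0.0427), and 7SK had 3.93 in mice labelled knockout and 1.16 in mice labelled wild type, a difference of 2.78 ± 0.33 (adjusted p = 2.38e-13), all from the authors' statistics. The 7SK difference is uncertain: in mice labelled wild type its ratio of 1.16 had a recovered standard error of 0.25, yet it had a q of 0.745 in the authors' deposited table. Of the hypothalamic genes, Irs4 (1.59 in mice labelled knockout and -0.28 in mice labelled wild type, difference 1.87 ± 0.40) and Gal (1.93 in mice labelled knockout and 0.04 in mice labelled wild type, difference 1.89 ± 0.48) passed, and Gabrq did not (adjusted p = 0.074 from the authors' statistics). Of the motile cilia list Dynlrb2 alone passed, with 1.495 in mice labelled knockout and -0.23 in mice labelled wild type (difference 1.72 ± 0.39). The median of the 14 motile cilia genes was 1.16 in mice labelled knockout and -0.06 in mice labelled wild type, where none was called, but for 13 of the 14 the difference did not pass.

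Some genes moved the same way in both. Gnrh1 fell in both, to 1.61 FPKM with desipramine, against 7.07 FPKM with saline, in mice labelled knockout (-2.13) and to 4.46 FPKM with desipramine, against 12.3 FPKM with saline, in mice labelled wild type (-1.46). Acta2 rose by 1.16 in mice labelled knockout and 1.13 in mice labelled wild type, and Myh11 by 0.70 in mice labelled knockout and 0.93 in mice labelled wild type. Nr2f2, a nuclear receptor of interneurons and blood vessels, rose by 0.87 in mice labelled knockout and 1.26 in mice labelled wild type. The pseudogene Gm11942 rose by 0.89 in mice labelled knockout and 1.14 in mice labelled wild type. Oxt and Avp were called higher in both, by 4.82 and 2.52 in mice labelled knockout and by 2.09 and 4.95 in mice labelled wild type. With saline both were under the floor in mice labelled knockout. In mice labelled wild type Oxt was above it, at 21.8 FPKM with desipramine and 5.13 FPKM with saline. Avp was at 24.7 FPKM with desipramine and 0.801 FPKM with saline there. Myoc was called in both with opposite signs, at -1.55 in mice labelled knockout and 1.74 in mice labelled wild type, but was under the floor in the injured saline group labelled wild type (0.963 FPKM) and so did not enter the test of the difference. Cbx8 had no usable standard error in mice labelled wild type, where its ratio was 0.27, and did not enter either.

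**Figure D4:**
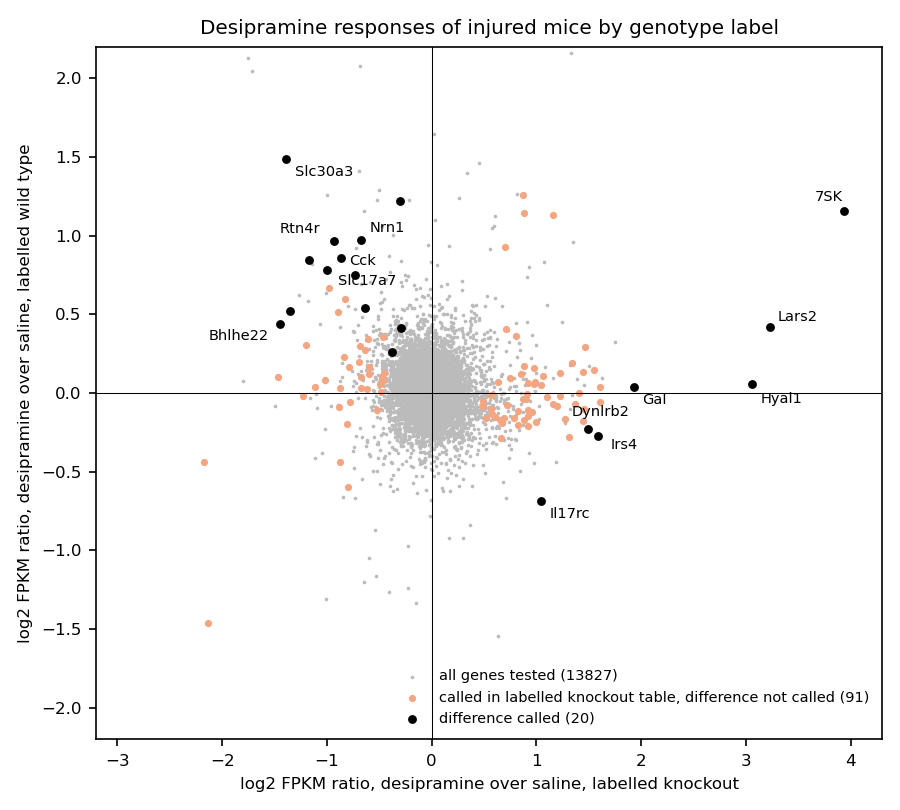
Each point is a gene's log2 FPKM ratio, desipramine over saline, in injured mice labelled knockout (horizontal axis) and in injured mice labelled wild type (vertical axis), for the 13827 genes tested, of which 5 uncalled ones lie outside the axes. The 20 genes whose difference passed (black) lie at the upper left, as Slc30a3 at -1.39 in mice labelled knockout and 1.49 in mice labelled wild type, and at the right, as Lars2 at 3.23 in mice labelled knockout and 0.42 in mice labelled wild type; orange marks the 91 genes called in mice labelled knockout whose difference did not pass.

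Levels were available in all 6 groups. The other comparisons of the series share a group with the one described here, so their values are given side by side and not as further evidence. Lars2 stood at 182 FPKM with injury and desipramine, 19.5 FPKM with injury and saline and 107 FPKM uninjured in mice labelled knockout, and at 31.4 FPKM with injury and desipramine, 23.5 FPKM with injury and saline and 29.1 FPKM uninjured in mice labelled wild type. Hyal1 stood at 15.5 FPKM with injury and desipramine, 1.86 FPKM with injury and saline and 33.7 FPKM uninjured in mice labelled knockout, and at 2.01 FPKM with injury and desipramine, 1.93 FPKM with injury and saline and 1.44 FPKM uninjured in mice labelled wild type. The desipramine and the uninjured groups labelled knockout thus held its highest levels. 7SK stood at 39.0 FPKM with injury and desipramine, 2.55 FPKM with injury and saline and 138 FPKM uninjured in mice labelled knockout, and at 4.73 FPKM with injury and desipramine, 2.12 FPKM with injury and saline and 4.58 FPKM uninjured in mice labelled wild type. For these 3 genes the injured saline groups of the genotype labels were not called different from each other, while the injured desipramine group and the uninjured group labelled knockout were each called higher than their counterparts labelled wild type. Those 3 genotype comparisons called 0.781% of genes above the floor with desipramine, 0.263% with saline and 1.33% in uninjured mice.

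Gal stood at 7.74 FPKM with injury and desipramine, 2.03 FPKM with injury and saline and 5.97 FPKM uninjured in mice labelled knockout, and at 6.55 FPKM with injury and desipramine, 6.38 FPKM with injury and saline and 2.31 FPKM uninjured in mice labelled wild type. Foxj1 stood at 8.25 FPKM with injury and desipramine, 3.99 FPKM with injury and saline and 6.49 FPKM uninjured in mice labelled knockout, and at 5.95 FPKM with injury and desipramine, 5.75 FPKM with injury and saline and 4.48 FPKM uninjured in mice labelled wild type. For the 14 motile cilia genes the median log2 ratio of injured saline over uninjured mice labelled knockout was -0.60, with 1 gene called lower. The median ratio of mice labelled knockout over labelled wild type was 0.61 with injury and desipramine and -0.61 with injury and saline. The desipramine group thus had the highest Foxj1, Ccdc153, Dynlrb2, Tmem212 and Rsph1 values of the 6 groups, and the injured saline group labelled knockout the lowest for Foxj1, Dynlrb2 and Rsph1. Slc17a7 stood at 41.1 FPKM with injury and desipramine, 81.9 FPKM with injury and saline and 51.9 FPKM uninjured in mice labelled knockout, and at 88.5 FPKM with injury and desipramine, 51.5 FPKM with injury and saline and 225 FPKM uninjured in mice labelled wild type. The uninjured group labelled wild type thus lay well above all others for this cortical gene. Cbx8 stood at 15.0 FPKM with injury and desipramine, 99.6 FPKM with injury and saline and 52.2 FPKM uninjured in mice labelled knockout, and at 61.1 FPKM with injury and desipramine, 50.8 FPKM with injury and saline and 86.3 FPKM uninjured in mice labelled wild type, so that the desipramine group labelled knockout was the lowest of the 6 and the injured saline group the highest. No spread within a group can be given for these levels, and neighbours in these orders cannot be separated beyond the deposited tests.

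**Figure D5:**
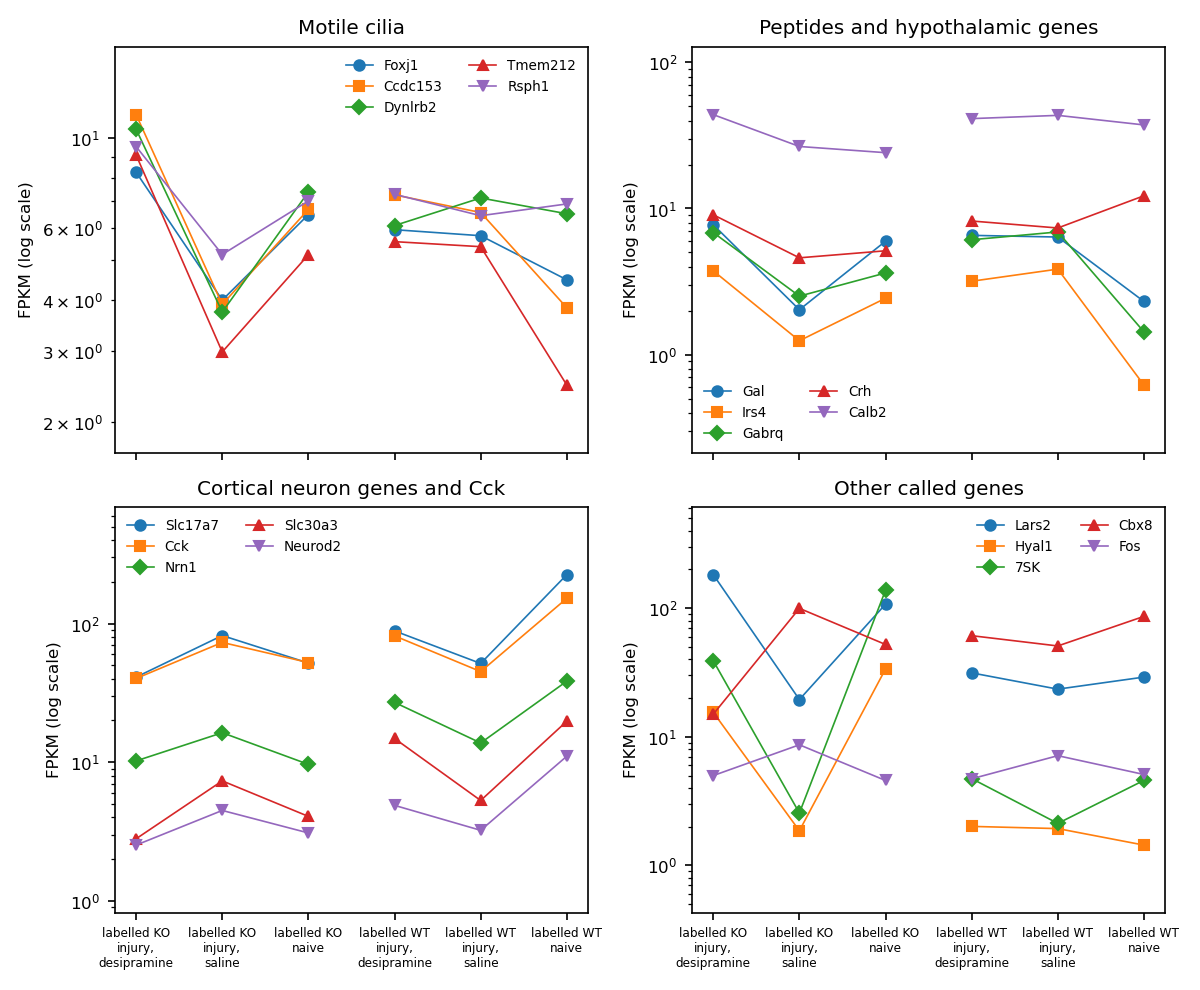
The FPKM (vertical axes, log scale) of 20 genes in 4 panels is shown for the 6 groups (horizontal axis), 1 deposited value per group, with lines joining the 3 groups of a genotype label. In the lower right panel Lars2, Hyal1 and 7SK are low only in the injured saline group among the mice labelled knockout, and in the upper left panel the 5 cilia genes are highest with injury and desipramine in mice labelled knockout.

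The called genes were spread over the genome and were nearly all protein-coding, as were most of all 14023 genes. Of the 107, 103 were protein-coding, and of the 14023, 12945 were. Above the floor 0 of 89 small nucleolar RNAs, 0 of 26 microRNA entries and 0 of 15 small nuclear RNAs were called. The median size of the log2 ratio was nevertheless 0.94 in the small nuclear RNAs, against 0.08 in protein-coding genes. A U4 small nuclear RNA entry outside the floor was called higher, at 81.1 FPKM with desipramine and 0 FPKM with saline. Chromosomes 12 (1.38%), 3 (1.34%) and X (1.22%) had the highest shares of called genes among chromosomes, against 0.763% over all genes. These shares rest on few calls: 5 higher and 2 lower on chromosome 12, 6 and 3 on chromosome 3, and 5 and 1 on X. The 5 genes called higher on X included Irs4, Gabrq and the orphan receptor genes Gpr101 and Gpr165. At the floor itself, Gm14308 (1.0004 FPKM with desipramine) and Dact1 (1.001 FPKM with saline) lay just inside, and Ttll8 (0.998 FPKM with saline) and Pex11c (0.9998 FPKM with desipramine) just outside; none of these 4 was called.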

How the data were processed

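Nucleus accumbens RNA was taken up in Trizol, cleaned on RNeasy Micro columns and turned into TruSeq libraries for a HiSeq instrument, per the labels' protocols. Bowtie2 2.1.0, TopHat2 2.0.9 and Cuffdiff 2.1.1 were used with the builds mm9 and NCBIM37, per the submitters' processing notes; the sources used here do not give the annotation release, the strand setting or the normalization options. The authors' 7 deposited tables list 37980 genes, each with 1 FPKM value per group, pooled over 3 samples, and, for a pair of groups, the authors' log2 fold change, their test score (a signed statistic), and p and q values; no count of reads is given, so the depth and its precision are unknown. The status column of the desipramine table labelled knockout read OK for 17304 genes, NOTEST for 20331, LOWDATA for 331, HIDATA for 12 and FAIL for 2.

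Log2 ratios were computed from the 2 deposited FPKM columns (pandas 2.3.3, numpy 2.4.6, scipy 1.17.1) with no pseudocount. A call is a deposited q of at most 0.05, adjusted over all tested genes by the authors. A standard error was recovered by dividing the log2 fold change by the test score and set aside where the deposited log2 fold change was off the FPKM ratio by more than 0.01, or where the statistic would give a normal p under 0.0001 while the deposited p was over 0.05; 69 of the 14023 genes had none. The central part of the scores was narrower (spread 0.342) than a standard normal would be, and the deposited p does not follow from the statistic alone. The difference between genotype labels used these errors with a normal p (two-sided), adjusted by the Benjamini-Hochberg method. The calculation was also run on ratios simulated from these same errors. Such a run cannot show whether the errors suit the real scores, whose central part was narrower. The series' design text calls the 3 samples of a group biological replicates; with pooled values the p-values rest on the authors' own estimate of the spread. The files held 0 unmapped columns of per-sample values. FPKM of a group differed between tables by factors of 0.986 to 1.018, so levels set across tables are approximate.

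Members and the 41 gene lists (979 of 991 entries found, 837 distinct genes above the floor) were chosen with earlier results of these data known. Named genes are Rgs9, 15 called genes with the largest rises and 15 with the largest falls (no predicted gene, pseudogene or small RNA), up to 4 called or 2 uncalled genes of lowest p per list, the first 8 differences on each side and up to 5 genes outside the floor; others were chosen after their values were seen. Alternatives were another threshold, other p-values, another adjustment, other floors, a pseudocount of 1, centring and gene subsets.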

Additional observations from a re-analysis of the deposited data

Results flagged for a closer look

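The 20 genes below had a log2 ratio of desipramine over saline that differed between injured mice labelled knockout and injured mice labelled wild type, by the test of the difference itself; each value is the ratio in mice labelled knockout minus the ratio in mice labelled wild type.

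Higher in mice labelled knockout were Hyal1 by 3.001, Lars2 by 2.81, 7SK by 2.78, Gal by 1.89, Irs4 by 1.87, Il17rc by 1.73 and Dynlrb2 by 1.72. Il17rc, a subunit of the interleukin-17 receptor, stood at 7.86 FPKM with desipramine and 3.81 FPKM with saline in mice labelled knockout and was called in neither table.

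Lower in mice labelled knockout were the cortical and peptide genes Slc30a3 (-2.87), Adcyap1 (-2.01), Rtn4r (-1.89), Bhlhe22 (-1.89), Slc17a7 (-1.78), Cck (-1.72) and Nrn1 (-1.65), together with A830036E02Rik (-1.87), Rpsa-ps10 (-1.52), Ncrna00085 (-1.48), Ptprv (-1.18), SNORA42 (-0.71) and AL589670.1 (-0.64). Of these, Rpsa-ps10 shares sequence with the ribosomal protein gene Rpsa, which was not called in either table. SNORA42 and Ptprv had a p of 0.886 and 0.0771 in the authors' deposited table of mice labelled knockout, where their test statistics alone would give much lower values, so their recovered standard errors may be too small and their differences are uncertain. The same holds for 7SK, whose ratio of 1.16 ± 0.25 in mice labelled wild type had a q of 0.745 in the authors' deposited table. It also holds for AL589670.1, whose ratio of -0.38 ± 0.11 in mice labelled knockout had a q of 0.999966 there.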

How the results depend on the processing

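No named gene or list median turned sign under the alternatives run, but the excess of rises over falls did turn, at a floor of 5 FPKM and with the normal p. The 63 higher and 44 lower calls of desipramine in mice labelled knockout were set beside each alternative. A q of at most 0.01 gave 41 higher and 28 lower. No floor on FPKM gave 130 higher and 51 lower, and a floor of 5 FPKM gave 20 higher and 23 lower. Taking a normal p from the deposited statistic gave 30 higher and 34 lower, and only 27 of its 64 calls were among the 107. With genes of a recovered standard error only it gave 16 higher and 6 lower, and the same with centred ratios, 16 and 6, 20 of the 22 being among the 107; 29 of 51 named calls were lost with the normal p, 7 at a q of 0.01 and 2 with adjustment over all 7 tables. The number of calls thus depends on the authors' p-values. Protein-coding genes alone (61 higher, 42 lower) and leaving out the motile cilia list (53 higher, 44 lower), both chosen after seeing the data, changed neither count by over 1.5 times. For the difference between genotype labels, 7 higher and 13 lower became 11 higher without a floor, 1 and 6 with a floor of 5 FPKM in all 4 groups, and 3 and 3 at an adjusted p of 0.01. Of 164 list medians, 1 moved by more than the median standard error, that of the motile cilia list at a floor of 5 FPKM, to 0.37. No paired analysis was possible because the files hold no values per sample, and for the same reason no replicate could be left out. Depth is unknown, low genes carry the larger errors, and lane, tissue taken and group cannot be told apart.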

Other observations

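Called higher among the genes in no list were Top2a, a topoisomerase of dividing cells, at 4.03 FPKM with desipramine and 2.08 FPKM with saline (0.95 ± 0.44), Ccnd2, a G1 cyclin, at 13.3 FPKM with desipramine and 9.45 FPKM with saline (0.49 ± 0.22), Sp8, a transcription factor of olfactory bulb precursors, at 2.61 FPKM with desipramine and 1.47 FPKM with saline (0.82 ± 0.33), and Cd24a, a surface protein of young neurons and ependymal cells, at 17.1 FPKM with desipramine and 8.58 FPKM with saline (0.996 ± 0.23). These 4 were chosen after their values were seen, and no difference from mice labelled wild type passed for them. Secreted proteins were called in both directions. Gpx3, a plasma glutathione peroxidase, stood at 23.0 FPKM with desipramine and 12.2 FPKM with saline (0.92 ± 0.27), Rarres2, the chemerin gene, at 31.3 FPKM with desipramine and 14.6 FPKM with saline (1.10 ± 0.53), and Igfbp2, a binder of insulin-like growth factors, at 9.76 FPKM with desipramine and 15.2 FPKM with saline (-0.64 ± 0.33). Dio2, the enzyme that forms active thyroid hormone in glia, stood at 5.49 FPKM with desipramine and 8.75 FPKM with saline (-0.67 ± 0.22). Resp18, a gene of neuroendocrine secretory vesicles with the highest mean level among the genes called higher, stood at 174 FPKM with desipramine and 116.5 FPKM with saline (0.58 ± 0.24).

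The chemokine gene Ccl9 stood at 17.9 FPKM with desipramine and 1.38 FPKM with saline in injured mice labelled knockout, without a call (3.70 ± 3.76). In injured mice labelled wild type it stood at 1.10 FPKM with desipramine and 12.9 FPKM with saline (-3.55 ± 0.84). It was called lower there, with a q of 0.0279 in the authors' deposited table. The difference between the genotype labels did not pass for Ccl9.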
